A study of Mus musculus with 6 samples.

Results

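Thymic maturation and recent emigrant genes were examined in naive CD8 T cells of the mouse spleen. They comprised 10 genes, Cd24a, Itm2a, Sox4, Satb1, Zbtb7b, Runx1, Runx3, Bcl11b, Gata3 and Car2, of which 9 were among the 11162 genes in the deposited table. Zbtb7b, which encodes ThPOK, the factor that directs thymocytes to the CD4 lineage, had no row there and was not analysed here. The 10 genes were chosen by name for a shared theme, with earlier results on their RPKM values in the same libraries known. Their differences between the populations are therefore given as a description, with a standard error and an interval but no p-value.

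The study compared cells sorted by the brightness of a Nur77-GFP reporter. In this transgene, Tg(Nr4a1-EGFP)GY139Gsat, EGFP is made under the control of Nr4a1, an immediate-early gene that T-cell receptor signals switch on. All 6 samples were CD8 T cells from spleen that carried this transgene and had been sorted as CD8+, CD44lo, CD62Lhi and Qa2hi, with OT-I, a transgenic T-cell receptor of a single specificity, named among the sort features. The 3 GFP-hi samples were the Nur77-GFPhi cells and the 3 GFP-lo samples the Nur77-GFPlo cells. The labels give no age, sex, treatment or time, and do not say whether samples came from separate animals, so the spread between libraries may be partly technical. The sort on high Qa2, a protein that T cells gain late in their maturation, limits how many of the youngest cells either population could hold.

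T cells finish their development in the thymus, where a double-positive thymocyte that passes positive selection becomes a CD4 or a CD8 single-positive cell. While it matures it loses CD24, gains Qa2 and the interleukin 7 receptor, and leaves for the blood. For a short time after export such recent thymic emigrants keep traces of the immature state. Transcription factors including Runx3 and ThPOK set the lineage, and Satb1, Bcl11b and Gata3 act both in the thymus and in mature T cells.

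Values are RPKM, a read density corrected for gene length and library depth, so levels of different genes can be compared. Recovered depths ran from 26170000 to 35940000 reads, which makes an RPKM of 1 worth 26.2 to 35.9 reads per kilobase. Fold changes are GFP-hi over GFP-lo on the log2(RPKM + 1) scale, which understates those of weakly expressed genes, from a limma fit. The fit covered the 9351 genes whose mean RPKM reached 1. All 9 genes passed that minimum through their mean over all 6 libraries. A gene counts as called where its Benjamini-Hochberg adjusted p in that fit was under 0.05. The 7 CD8 T cell markers looked for were all present, from Cd247 at 37 to 45.8 RPKM to Cd8b1 at 785 to 839 RPKM. limma called none of them, with 1 at an unadjusted p under 0.05. Of the 9351 genes tested, 1885 had an unadjusted p under 0.05, in either direction. Of 8 gamma-delta and NK cell markers and 10 myeloid markers, 1 each had a row, Sox13 and Itgam, with at most 0.617 and 0.431 RPKM. Replicate 2 of each population stood apart by its heat-shock transcripts, with 1100 and 1230 RPKM of Hspa1a against 152 to 235 RPKM in the other 4 libraries. The mean of Nr4a1 itself was 61.5 ± 27.3 RPKM for GFP-hi and 60.6 ± 25.6 RPKM for GFP-lo (SD, n = 3 each), so this endogenous transcript gave no check of the labels.

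The 9 genes divided into a set that was higher in GFP-hi cells and a set of lineage factors with small differences. Cd24a, Itm2a, Sox4 and Car2 were 4.02, 2.05, 1.94 and 1.97 times as abundant in GFP-hi as in GFP-lo cells by the ratio of mean RPKM. Satb1, Runx3, Runx1, Bcl11b and Gata3 had ratios from 0.804 to 1.04. The first 4 genes were called higher and none of the 9 was called lower. Over all genes tested 3.95% were called, 2.46% higher and 1.49% lower. The 2 populations did not overlap for 6 of the 9 genes, 4 higher and 2 lower, where 26.9% of all genes tested did not overlap, 17.1% higher and 9.84% lower. Because the genes were chosen with this contrast known, nothing is read from these counts. For the same reason, calls of single genes in the alternative fits below describe only how a call depends on the processing. The median log2 fold change of the 9 genes was 0.05, against 0.02 for all genes tested.

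**Figure D1:**
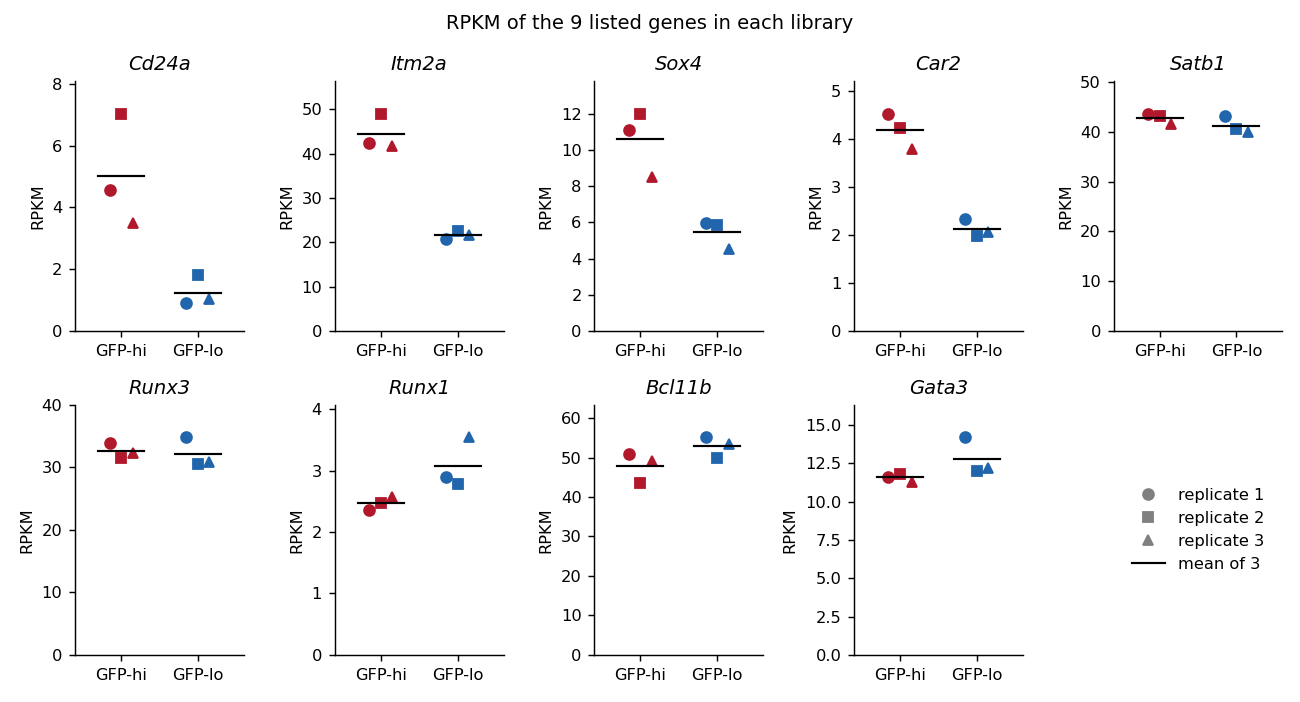
RPKM (vertical axes, from 0) of the 9 listed genes in the 3 GFP-hi (red) and 3 GFP-lo (blue) libraries, with symbols for the replicate and a black line for the mean. Cd24a, Itm2a, Sox4 and Car2 lie higher in each GFP-hi library than in any GFP-lo library, whereas Satb1, Runx3 and Bcl11b overlap. Runx1 and Gata3 lie lower in each GFP-hi library than in any GFP-lo library.

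Cd24a (Entrez 12484, chr10:43579169-43584265, build GRCm38.p6) encodes the heat-stable antigen CD24, a small glycoprotein anchored in the membrane by a lipid. It is abundant on immature thymocytes and is lost as T cells mature. Its RPKM was 4.56, 7.03 and 3.49 in the GFP-hi libraries and 0.902, 1.81 and 1.03 in the GFP-lo libraries. The lowest GFP-hi library thus lay above the highest GFP-lo library, and replicate 2 was the highest in both populations. On average the GFP-hi cells had 5.03 ± 1.82 RPKM against 1.25 ± 0.494 RPKM (SD, n = 3 each). That corresponds to a log2 fold change of 1.40 (standard error 0.22, 95% interval 0.89 to 1.91), the 6th largest rise among all genes tested. Cd24a was a weakly expressed gene, above 32.6% of the listed genes, and its values rested on 103 to 239 reads per kilobase in GFP-hi and 27 to 52 in GFP-lo libraries. Its spread within the populations, with an SD of 0.369 in log2(RPKM + 1), was larger than that of 98.6% of genes tested. It was not called without GFP-lo replicate 1 (log2 fold change 1.29) or without GFP-lo replicate 3 (1.34). In the 4 libraries with lower heat-shock transcripts the log2 fold change was 1.35.

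CD24 is also a protein of B cells and of erythroid cells. Of 14 B cell markers, 4 had a row in the table, and their summed RPKM was 14.6 to 16.9 in GFP-hi and 13.2 to 13.5 in GFP-lo libraries. Most of that sum was Cd79b, which had 13.1 ± 1.04 RPKM in GFP-hi libraries, 10.8 ± 0.329 RPKM in GFP-lo libraries (SD, n = 3 each) and a limma adjusted p of 0.075. Each GFP-hi library was above each GFP-lo library for Cd79b, and its unadjusted p was under 0.05. Ms4a1, which encodes the B cell protein CD20, lay between 0.084 and 0.597 RPKM and overlapped between the populations, and Cd79a and Pax5 had no row. The part of B cells in the Cd24a difference was not tested. In such bulk samples, a change in the number of cells that make a transcript and a change in its amount per cell cannot be told apart.

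Itm2a (Entrez 16431, chrX:107397195-107403360, build GRCm38.p6) encodes a membrane protein that thymocytes make during positive selection. It was the most abundant of the 4 genes that were higher, reaching 42.5, 49.0 and 41.8 RPKM in the GFP-hi libraries. The GFP-lo libraries had 20.7, 22.5 and 21.7 RPKM. The populations lay far apart relative to their spread, and replicate 2 was again the highest in both populations. Averages of 44.4 ± 3.99 and 21.6 ± 0.889 RPKM (SD, n = 3 each) gave a log2 fold change of 1.00 (standard error 0.072, 95% interval 0.84 to 1.17). Its values rested on at least 568 reads per kilobase, and it was called in each of the 18 alternative fits, with log2 fold changes from 0.92 to 1.04.

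Sox4 (Entrez 20677, chr13:28948919-28953699, build GRCm38.p6) encodes a transcription factor with an HMG box that is needed in early lymphocyte development. Its RPKM was 11.1, 12.0 and 8.50 in GFP-hi and 5.95, 5.88 and 4.53 in GFP-lo libraries. Replicate 3 was the lowest in both populations, yet GFP-hi replicate 3 was above each GFP-lo library. Averages of 10.6 ± 1.83 and 5.45 ± 0.802 RPKM (SD, n = 3 each) gave a log2 fold change of 0.84 (standard error 0.13, 95% interval 0.53 to 1.14). Sox4 was not called without GFP-hi replicate 1 (0.79) or in the 4 libraries with lower heat-shock transcripts (0.79). In GENCODE M21 a lincRNA on the opposite strand, Gm26735, shares 2616 of the 4795 exon bases of Sox4, or 54.6%. The counting is not stated to use strand, so reads from the pair cannot be told apart in that stretch.

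The RefSeq promoter table (GRCm38.p6) held 8 of the 10 genes, without Cd24a and Car2, with 15 start sites in all. The 250 bases before the start are shown for Itm2a and Sox4, the 2 genes of the higher set that it held, 5′ to 3′ on the gene's strand, which is the minus strand for both. Capitals mark matches, on either strand, to the motifs that were searched.
Itm2a, chrX:107403361-107403610: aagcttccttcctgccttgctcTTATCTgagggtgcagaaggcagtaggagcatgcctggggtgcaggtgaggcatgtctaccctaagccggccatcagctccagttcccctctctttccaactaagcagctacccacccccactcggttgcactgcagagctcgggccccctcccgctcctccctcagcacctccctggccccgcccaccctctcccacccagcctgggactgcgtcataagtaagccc
Sox4, chr13:28953700-28953949: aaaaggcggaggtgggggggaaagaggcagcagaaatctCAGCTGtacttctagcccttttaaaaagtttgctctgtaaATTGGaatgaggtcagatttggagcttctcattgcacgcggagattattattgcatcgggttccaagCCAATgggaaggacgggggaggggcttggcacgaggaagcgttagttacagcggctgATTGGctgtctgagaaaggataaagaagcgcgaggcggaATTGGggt
The motifs were TGTGGT and TGCGGT for Runx factors, AGATAA for GATA factors, CTTTGA for Tcf1 and Lef1, CCGGAA for Ets factors and CAGCTG, an E-box. AAAGGTCA, the element bound by a single Nur77 protein, the TATAAA box and the CCAAT box were also searched, and no motif contains another. The Itm2a window held 1 match, to the GATA motif on the opposite strand, 228 to 223 bases before the start, a motif found in 9.99% of the 32851 windows of the table. The Sox4 window held 4 matches to CCAAT, found in 33.8% of all windows, and 1 to the E-box, found in 13%. None of the 15 windows held AAAGGTCA, which 1.34% of all windows held. Such matches are descriptions of the letters and not evidence of binding.

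Car2 (Entrez 12349, chr3:14886269-14900770, build GRCm38.p6) encodes carbonic anhydrase 2, a cytosolic enzyme that turns carbon dioxide and water into bicarbonate. Its RPKM was 4.53, 4.24 and 3.80 in GFP-hi and 2.34, 1.99 and 2.06 in GFP-lo libraries. The lowest GFP-hi library was above the highest GFP-lo library, and the libraries within a population lay close together. Averages of 4.19 ± 0.368 and 2.13 ± 0.183 RPKM (SD, n = 3 each) gave a log2 fold change of 0.73 (standard error 0.079, 95% interval 0.54 to 0.91). Car2 was called in each of the 6 fits without 1 library but not in the 4 libraries with lower heat-shock transcripts (0.69). The enzyme is abundant in red blood cells. Of 14 erythroid markers 3 had a row, and the alpha globin gene Hba-a1 stood at 0.047, 0.118 and 1.94 RPKM in GFP-hi libraries and at 0.484, 0.393 and 1.48 RPKM in GFP-lo libraries. Hba-a1 thus overlapped between the populations, and Alas2 and Slc4a1 had no row. The summed RPKM of the 3 erythroid markers was 9.80 to 12.9 in GFP-hi and 7.78 to 11.2 in GFP-lo libraries. Most of that sum was Tfrc, with 9.11 ± 0.562 and 7.72 ± 0.951 RPKM (SD, n = 3 each). Gata1 and Tfrc, the 2 that were tested, were both higher at an unadjusted p under 0.05 but were not called. Gata1 averaged 0.836 RPKM in GFP-lo cells, under the minimum of 1, and so was tested only because of its level in GFP-hi cells. The part of erythroid cells in the Car2 difference was not tested. Among the other carbonic anhydrases, Car12 had 2.70 ± 0.0828 and 2.66 ± 0.300 RPKM in the order GFP-hi, GFP-lo (SD, n = 3 each).

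**Figure D2:**
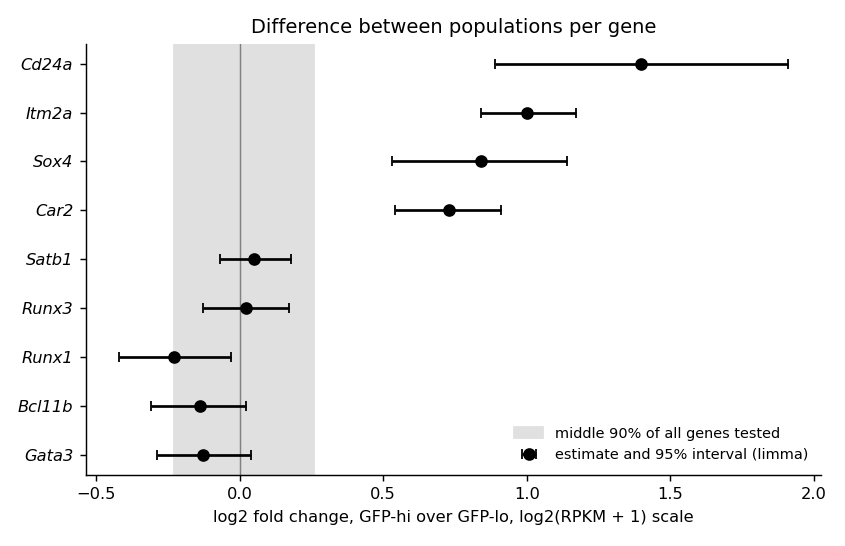
Log2 fold change of the 9 listed genes, GFP-hi over GFP-lo on the log2(RPKM + 1) scale (horizontal axis), with the 95% interval from limma. The grey band holds the middle 90% of all genes tested, from -0.23 to 0.26, and Cd24a, Itm2a, Sox4 and Car2 lie beyond it with their intervals.

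Among the lineage factors, Satb1 (Entrez 20230) encodes a protein that organises chromatin in thymocytes. Its RPKM was 43.6, 43.2 and 41.5 in GFP-hi and 43.1, 40.6 and 40.0 in GFP-lo libraries, so the populations overlapped. The log2 fold change was 0.05 with a 95% interval from -0.07 to 0.18. Satb1 was the steadiest of the 9 genes, with a spread larger than that of only 12.5% of genes tested. It was expressed at the level of Itm2a in GFP-hi cells, which averaged 42.8 ± 1.11 RPKM for Satb1 and 44.4 ± 3.99 RPKM for Itm2a. In GFP-lo cells Satb1 averaged 41.2 ± 1.68 RPKM, above the 21.6 ± 0.889 RPKM of Itm2a (SD, n = 3 each).

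Runx3 (Entrez 12399) and Runx1 (Entrez 12394) encode DNA-binding proteins that pair with the product of Cbfb and act on the silencer of Cd4. Runx3, the main Runx gene of mature CD8 T cells, was found at 33.9, 31.5 and 32.3 RPKM in GFP-hi libraries and at 34.8, 30.6 and 30.9 RPKM in GFP-lo libraries. The highest and the lowest values both belonged to GFP-lo cells. A log2 fold change of 0.02 (95% interval -0.13 to 0.17) resulted, and it was negative in 5 of 18 alternative fits. Runx1 was found at 2.36, 2.48 and 2.57 RPKM in GFP-hi libraries and at 2.89, 2.78 and 3.54 RPKM in GFP-lo libraries. The GFP-hi libraries were all lower, with means of 2.47 ± 0.109 and 3.07 ± 0.411 RPKM (SD, n = 3 each). In log2 terms the difference was -0.23 (95% interval -0.42 to -0.03), and Runx1 was not called in any of the 17 alternative fits that tested it, where its log2 fold change ran from -0.30 to -0.15. Within a library Runx3 was 12.6 to 14.4 times as abundant as Runx1 in GFP-hi cells and 8.72 to 12.1 times in GFP-lo cells, and these ranges did not overlap. Runx2, the other gene of the family, had at most 0.321 RPKM. A stretch of the upstream Runx3 promoter is shown because it was the window, of the 15, with 2 matches to the Runx motif, 14.0% of all windows having at least 1. It runs from 150 to 91 bases before the start on the plus strand, with the matches, which read ACCACA on this strand, in capitals.
Runx3, chr4:135120495-135120554: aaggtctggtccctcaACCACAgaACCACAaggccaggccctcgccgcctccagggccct

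Bcl11b (Entrez 58208) encodes the zinc finger factor that commits precursors to the T lineage, and was the most abundant of the 9 genes. Its RPKM was 50.8, 43.5 and 49.0 in GFP-hi and 55.1, 49.9 and 53.3 in GFP-lo libraries, which overlapped because GFP-hi replicate 1 lay above GFP-lo replicate 2. Averages of 47.8 ± 3.81 and 52.8 ± 2.62 RPKM (SD, n = 3 each) gave a log2 fold change of -0.14 (95% interval -0.31 to 0.02). Gata3 (Entrez 14462), a zinc finger factor needed at several steps of T-cell development and above all for CD4 cells, had 11.6, 11.8 and 11.3 RPKM in GFP-hi and 14.2, 12.0 and 12.2 RPKM in GFP-lo libraries. The populations did not overlap, but GFP-hi replicate 2 and GFP-lo replicate 2 lay next to each other, and GFP-lo replicate 1 stood above the rest. The log2 fold change of Gata3 was -0.13 with a 95% interval from -0.29 to 0.04. Both genes had negative fold changes in all 18 alternative fits and were called in none. The order of mean levels differed between the populations. In GFP-hi cells it was Bcl11b (47.8 RPKM), Itm2a (44.4), Satb1 (42.8), Runx3 (32.6), Gata3 (11.6), Sox4 (10.6), Cd24a (5.03), Car2 (4.19) and Runx1 (2.47). Neighbours overlapped there between Bcl11b and Itm2a, Itm2a and Satb1, Gata3 and Sox4, and Cd24a and Car2. In GFP-lo cells the order was Bcl11b (52.8 RPKM), Satb1 (41.2), Runx3 (32.1), Itm2a (21.6), Gata3 (12.8), Sox4 (5.45), Runx1 (3.07), Car2 (2.13) and Cd24a (1.25), and no neighbours overlapped.

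Longer transcripts tended to have lower fold changes. Spearman's rho between the 2 was -0.283 over 9107 genes with a GENCODE M21 transcript, which are not independent replicates. Cd24a, Itm2a and Car2 have transcripts of 1816, 1744 and 1788 bases, and other tested genes within 20% of those lengths had a median log2 fold change of 0.06. For Sox4 (4795 bases) the median of genes of like length was -0.01. For Bcl11b (8111 bases), Runx1 (5861) and Gata3 (3215) the medians of genes of like length were -0.04, -0.03 and 0.02. With the trend with length and GC content removed, an alternative added once the data were known, the log2 fold changes were 1.34 for Cd24a, 0.94 for Itm2a, 0.88 for Sox4 and 0.68 for Car2, and all 4 were called. The part of transcript length in the differences of these genes was not tested.

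**Figure D3:**
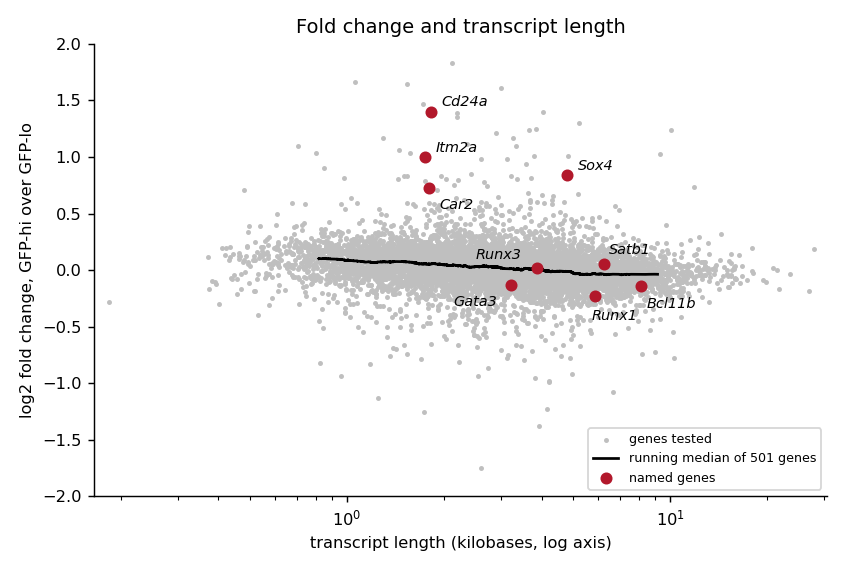
Log2 fold change, GFP-hi over GFP-lo on the log2(RPKM + 1) scale (vertical axis), against transcript length in kilobases (horizontal log axis) for the genes tested (grey), with a running median (black line) and the 9 listed genes (red). The running median falls slowly with length, and Cd24a, Itm2a, Car2 and Sox4 lie far above it, Sox4 at a length of 4795 bases.

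Other genes of the same biology were counted from lists that do not include the 10 genes. The lists too were chosen with earlier results of these data known, and some genes stand in several of them. Their counts and adjusted p-values are therefore a description, and nothing is read from the counts. Of all genes tested 2.46% were called higher and 1.49% lower. At an unadjusted p under 0.05 there were 1885 of the 9351 genes tested, in either direction. Of the thymocyte stage genes 9 of 17 were tested, and limma called 2 higher and none lower (3 and 1 at an unadjusted p under 0.05). Ccr9, which encodes a chemokine receptor of thymocytes and gut-homing cells, averaged 18.1 ± 1.96 RPKM in GFP-hi and 11.0 ± 1.2 RPKM in the GFP-lo libraries (SD, n = 3 each; log2 fold change 0.67, limma adjusted p = 0.01). Tox, which encodes a nuclear factor needed for positively selected thymocytes to develop further, had 12.3 ± 0.229 against 9.90 ± 0.386 RPKM (log2 fold change 0.29, limma adjusted p = 0.026). Tox lost its call in 4 of the 6 fits without 1 library, with adjusted p up to 0.11, and its adjusted p was 0.11 in the 4 libraries with lower heat-shock transcripts, where that of Ccr9 was 0.077. Dntt, the terminal transferase of immature thymocytes, averaged 1.32 ± 0.220 RPKM against 2.04 ± 0.292 RPKM in GFP-lo cells (limma adjusted p = 0.083). Rag1 lay between 0.021 and 0.673 RPKM and overlapped, and Rag2, Ptcra and Cd4 had no row. The list's median log2 fold change was 0.05.

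All 17 maturation and egress genes were tested, and limma called none higher and 2 lower (1 and 6 at an unadjusted p under 0.05). Il7r, which encodes the interleukin 7 receptor alpha chain that T cells regain late in the thymus, averaged 64.0 ± 5.53 RPKM in GFP-hi and 112 ± 6.71 RPKM in the GFP-lo libraries (SD, n = 3 each; log2 fold change -0.80, limma adjusted p = 0.0022). Ifngr1, which encodes a chain of the interferon gamma receptor, averaged 50.9 ± 2.07 RPKM against 74.7 ± 2.40 RPKM in GFP-lo cells (log2 fold change -0.54, limma adjusted p = 0.0024). Leaving out any 1 of the 6 libraries kept both calls. Cd55, which encodes an inhibitor of complement found on mature T cells, had 16.8 ± 4.15 and 27.1 ± 2.80 RPKM without passing the threshold (limma adjusted p = 0.065). Klf2 and S1pr1, which act in egress, had log2 fold changes of -0.11 and -0.07 and overlapped between the populations. The list's median log2 fold change was -0.11.

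Of the 12 recent emigrant surface markers 10 were tested, and Itgae and Ccr9 were higher and Il7r lower. Itgae, which encodes the integrin CD103, stood at 73.9, 67.9 and 60.7 RPKM in GFP-hi libraries and at 31.6, 25.9 and 25.9 RPKM in GFP-lo libraries (log2 fold change 1.25, standard error 0.098, limma adjusted p = 0.00087). Pecam1, which encodes CD31, a marker of recent emigrants in human blood, had 29.7 ± 0.474 and 29.7 ± 2.59 RPKM (SD, n = 3 each), and Ptk7 had no row. The list's median log2 fold change was 0, with calls in both directions.

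Of 24 lineage transcription factors 21 were tested, and limma called 2 higher and none lower (5 and 0 at an unadjusted p under 0.05). These were Tox and Id2, which encodes an inhibitor of E proteins, with 36.0 ± 2.74 against 27.8 ± 1.99 RPKM (SD, n = 3 each; log2 fold change 0.36, limma adjusted p = 0.04). Id2 kept the call in 1 of the 6 fits without 1 library, with adjusted p up to 0.13. Cbfb, the partner of the Runx proteins, had 22.1 ± 1.09 and 18.9 ± 0.313 RPKM without passing the threshold (limma adjusted p = 0.081). Myb, a factor of thymocytes and dividing cells, had 8.08 ± 2.32 and 4.94 ± 0.979 RPKM (limma adjusted p = 0.12). The list's median log2 fold change was 0.07.

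Of 12 genes linked to Runx3 or ThPOK in T cells 10 were tested, and 2 were higher and 2 lower. Itgae and Gzmb (log2 fold change 0.81, limma adjusted p = 0.038), which encodes granzyme B, were higher. Prf1 (-0.57, limma adjusted p = 0.0046), which encodes perforin, and Cd40lg (-1.13, limma adjusted p = 0.011), the CD40 ligand typical of CD4 cells, were lower. Gzmb lost its call in 4 of the 6 fits without 1 library. Cd8a and Cd8b1 had log2 fold changes of 0.07 and -0.01. Of 18 relatives of the 10 genes 5 were tested, and Itm2c was lower. Itm2c, a relative of Itm2a, averaged 27.9 ± 1.05 RPKM in GFP-hi and 34.7 ± 1.16 RPKM in the GFP-lo libraries (SD, n = 3 each; log2 fold change -0.30, limma adjusted p = 0.023) and kept the call in 1 of the 6 fits without 1 library. Itm2b, the other gene of that family, had 159 ± 12.1 and 160 ± 8.84 RPKM, and Zbtb7a, a relative of Zbtb7b, had 11.2 ± 0.671 and 11.6 ± 1.22 RPKM.

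**Figure D4:**
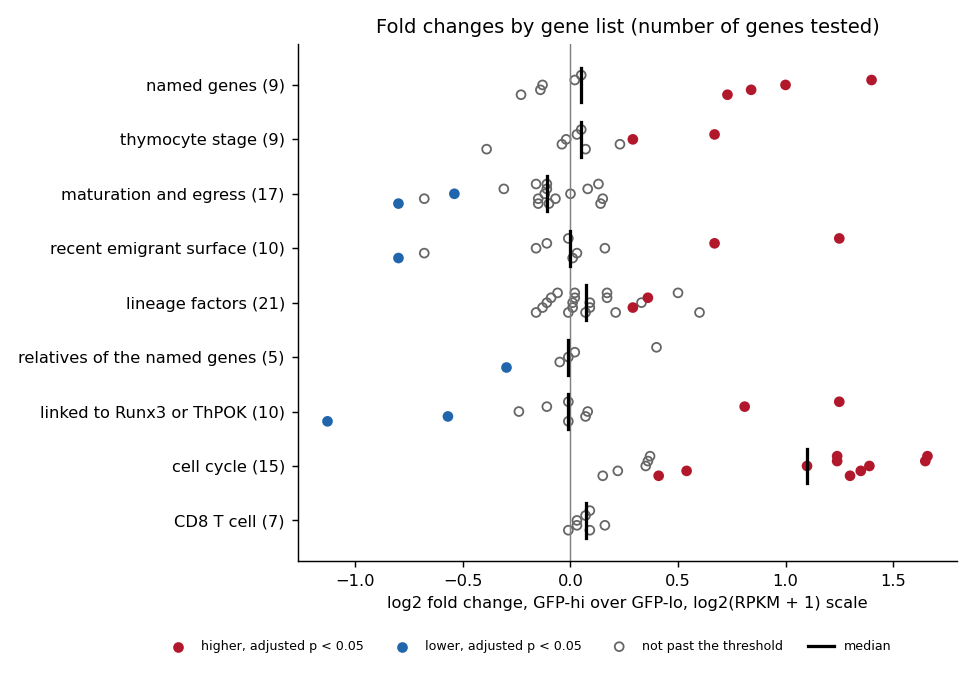
Log2 fold change of each gene tested, GFP-hi over GFP-lo on the log2(RPKM + 1) scale (horizontal axis), for the 9 listed genes and 8 lists, with the number tested in brackets. Filled points passed the threshold of adjusted p under 0.05 (red higher, blue lower), open points did not, and black bars are medians, from -0.11 to 0.07 apart from that of cell cycle genes, 7 of whose 15 points were tested only because of their GFP-hi level.

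Transcripts of dividing cells were also higher. Of 20 cell cycle genes 15 were tested, of which 10 were higher, Stmn1 and Ccnb2 among them, and none lower. The summed RPKM of all 20 was 190 to 213 in GFP-hi and 135 to 146 in GFP-lo libraries. Most of that sum came from Pcna and genes of the Mcm family. Among these, Mcm2, Mcm3 and Pcna were not called (limma adjusted p = 0.17, 0.07 and 0.21). Of the 15 genes, 7 had a mean RPKM under 1 in GFP-lo cells, 6 of the 10 called higher among them, and so were tested only because of their level in GFP-hi cells, which partly sets this count. Mki67, a marker of cycling cells, had 2.10, 1.31 and 2.31 RPKM in GFP-hi libraries and 0.07, 0.279 and 0.306 RPKM in GFP-lo libraries. The part of dividing cells in the differences of the 4 genes was not tested. Of 6 CD4 and regulatory T cell markers 3 had a row. Izumo1r, which encodes folate receptor 4, was higher (3.40 ± 0.364 against 0.959 ± 0.149 RPKM, limma adjusted p = 0.00087). Its GFP-lo mean was under 1 RPKM, so it too was tested only because of its level in GFP-hi cells. Ctla4 had 2.54 ± 0.790 and 1.42 ± 0.393 RPKM (SD, n = 3 each) and overlapped between the populations. It was higher at an unadjusted p under 0.05 but was not called (limma adjusted p = 0.16). Cd40lg was lower, and Cd4 and Foxp3 had no row. Of the 19 dissociation and heat-shock genes tested limma called none (1 lower at an unadjusted p under 0.05), and their median log2 fold change was -0.24.

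The genes whose profile over the 6 libraries was most like that of a member were found by Pearson's r of log2(RPKM + 1) among genes tested, as a description of 6 points that share the difference between populations. For Cd24a they were Nkg7, Itgb1bp1 and Baz2b (r = 0.998, 0.994 and 0.992), none of which was called. For Itm2a they were Uba2, Marcks and Acot7 (r = 0.998, 0.998 and 0.997). For Sox4 they were Gabrr2, Id2 and Hcfc2 (each r = 0.998). For Car2 they were Itgae, Ano10 and Izumo1r (r = 0.999, 0.999 and 0.996). These genes differ in size of change. Nkg7, which encodes a protein of cytotoxic granules, had 306 ± 9.03 and 279 ± 4.12 RPKM, whereas Marcks had 2.88 ± 0.422 and 0.473 ± 0.148 RPKM (SD, n = 3 each). Marcks and Izumo1r averaged under 1 RPKM in GFP-lo cells, so both were tested only because of their level in GFP-hi cells.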

How the data were processed

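RNA of 6 samples of sorted spleen CD8 T cells was sequenced. Per the labels' protocols, RNA was purified on columns, the SMART-seq v4 kit made the cDNA and the NexteraXT kit the libraries. The submitters' processing notes name STAR and mm10. The read counter, the annotation and the rule for listing genes are not given in the sources used here. The values deposited by the authors are RPKM, per the file headers, in 6 columns, 1 for each sample, matched by title. Groups come from the reporter label. Replicates were numbered by record order only, so the numbers were not used to pair libraries, and effects shared by libraries of the 2 populations stay in the spread of the fit.

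Depth was recovered by seeking the library size at which RPKM times transcript length came nearest whole reads, over 720 genes with a single GENCODE M21 transcript. Of the low values, 87.7% to 93.1% came within 0.1 of a whole read, where chance gives 20%. Reads include PCR copies, so counting error understates the error.

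limma 3.58.1 (R 4.3.3) was fitted to log2(RPKM + 1) for genes whose mean RPKM reached 1 (1811 left out), with lmFit, eBayes with a trend, no covariate, two-sided tests and p-values adjusted by Benjamini-Hochberg across the tested genes. The fit and the depth search were tested on simulated data. Alternatives numbered 16 planned and 2 chosen after seeing the data. Symbols of 15 genes were restored by Entrez ID. Coordinates are those of RefSeq on GRCm38.p6, the assembly behind mm10. The 10 genes and the lists were chosen with earlier results of these data known. Named are the 10 genes, up to 6 called genes of each list by size of change, markers of other cells, and the 3 genes most like each called member. Genes of the lists named without passing the threshold, and Nr4a1, were picked after their values were seen. Figures used matplotlib 3.10.9.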

Additional observations from a re-analysis of the deposited data

How the results depend on the processing

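No paired analysis was run because the labels give no replicate numbers and do not link libraries across the populations. Hspa1a was high in 1 library of each population (1100 and 1230 RPKM) and Ccr7 in another (429 and 516 RPKM), and the calls rest on a fit that takes no account of this. Over all genes, 369 were called (230 higher, 139 lower). That number was 202 with a mean RPKM of at least 5, where fewer genes were tested, 1282 with array quality weights, 101 in the 4 libraries with lower Hspa1a and Hspa1b, where fewer samples were used, and 646 with the length and GC trend removed. It ran from 133 to 315 with 1 library left out, being 153 and 186 without GFP-hi replicates 1 and 3, 235, 133 and 157 without GFP-lo replicates 1, 2 and 3, and 315 without GFP-hi replicate 2. Of the genes called, the higher ones made up 62.3%. It became 52.1% after scaling by a trimmed mean of M values (199 higher, 183 lower) and 51.5% in the 4 libraries (52 higher, 49 lower).

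Of the 9 genes, 4 were called. The number was 2 with a mean RPKM of at least 5, which left Cd24a and Car2 untested, and 2 in the 4 libraries, and 3 or 4 without 1 library. Cd24a, Itm2a, Sox4 and Car2 had positive log2 fold changes in all alternatives that tested them. For Cd24a they ran from 1.04 with array quality weights to 1.93 with a pseudocount of 0.1, with 1.17 without GFP-hi replicate 2. Those of Sox4 ran from 0.68 to 0.97, and those of Car2 from 0.68 to 0.94, the latter with a pseudocount of 0.1. Of the genes on the other lists 21 of 108 tested were called, where 3.95% of all genes tested were called. The number was 12 with a mean RPKM of at least 5 and 42 with array quality weights. Of the 21, 16 were higher and 10 of these were cell cycle genes. Of the 16, 7 were tested only because of their level in GFP-hi cells. The lists were chosen with earlier results of these data known, so nothing is read from this count. No cause of the differences between the populations was tested. With 3 libraries in each population, Cd24a (standard error 0.22) and Sox4 (0.13) were the least precise of the 9 genes.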

Other observations

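Libraries with the same replicate number resembled each other across the populations for some genes of the lists, although the labels do not link them. Ccr7, which encodes the receptor that guides T cells into lymph nodes, had an RPKM of 429 in GFP-hi replicate 1 and 516 in GFP-lo replicate 1, and of 233 to 264 in the other 4 libraries. Id3, which encodes an inhibitor of E proteins, had 136 and 88.2 RPKM in replicate 2 of GFP-hi and GFP-lo, against 73.5 and 80.0 RPKM in the other GFP-hi and 55.2 and 57.7 RPKM in the other GFP-lo libraries. Ifng, which encodes interferon gamma, had 5.12 and 5.68 RPKM in replicate 2 of GFP-hi and GFP-lo, and 1.74 to 3.11 RPKM in the other 4 libraries.

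Within a library, Itm2a was 6.97 to 12.0 times as abundant as Cd24a in GFP-hi cells and 12.4 to 23.0 times in GFP-lo cells, without overlap. Itm2a over Sox4 was 3.82 to 4.91 in GFP-hi and 3.48 to 4.80 in GFP-lo cells, so these ranges overlapped. Bcl11b over Satb1 was 1.01 to 1.18 in GFP-hi and 1.23 to 1.33 in GFP-lo cells.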
